A study of Homo sapiens with 6 samples.

Results

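The genes described here encode the structural proteins of the extracellular matrix, namely collagen chains, laminin chains and matrix glycoproteins and proteoglycans. The list names 58 genes, chosen by family but with earlier results of these data known, and it leaves out some chains of these families. A gene was represented by the probe set with 1 gene symbol and the highest mean. Of the 58 genes, 57 had such a probe set, among 18417 genes tested in all, and LAMA3 was not analysed here. RNA came from WM164, an established human melanoma line whose BRAF kinase is mutated. The IDTC colony group held 3 samples treated for 60 days with 500 nM PLX4032 (vemurafenib, an inhibitor of mutant BRAF), which the labels also call resistant, in medium with fetal calf serum renewed with inhibitor at intervals. The parent group held 3 samples of the same line, labelled as untreated controls, that received the solvent DMSO per the series title. All samples therefore share 1 line and 1 BRAF-mutant background, and the labels do not say whether the colonies came from 1 cell or several.

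The matrix falls into assemblies with different roles. Fibrillar collagens are triple helices that pack into the fibres of connective tissue, while basement membranes are thin sheets in which laminin trimers of an alpha, a beta and a gamma chain form a network joined to one of type IV collagen by nidogens and the proteoglycan perlecan. Matricellular glycoproteins such as tenascin-C, osteopontin and the thrombospondins bind cells and other matrix proteins without building the scaffold. Melanocytes sit on the basement membrane of the epidermis, and melanoma cells both make and cross such matrix.

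The values are the authors' deposited log2 levels of each probe set on 1-colour Affymetrix arrays, whose number sets the precision. Across genes, correlations between arrays ran from 0.997 to 0.998 within a group and from 0.967 to 0.969 between groups. The array medians lay between 6.25 and 6.34. Whether a probe set lay above background was not tested, so a difference whose lower group lies under 6.25 is one of deposited values. Of the 57 measured genes, 26 had both group means under 6.25. Identical values on all 3 colony arrays occurred in 5 of the 57, against 2.56% of all genes, and on all 3 parent arrays in 1, against 1.17%, so an SD of 0 belongs to the deposited table. Markers of the melanocyte lineage were present, with PMEL at 12.86 ± 0.00 in colonies and 12.52 ± 0.02 in parent cells (mean ± SD, n = 3 each), and MITF and SOX10 no lower than 11.07 and 10.67 on any array, while TYRP1 was no higher than 4.80. Among 10 fibroblast markers 7 had both group means under 6.25, as had 7 of 8 endothelial, 5 of 7 keratinocyte, 4 of 7 leukocyte and 3 of 8 smooth muscle and pericyte markers.

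Matrix genes moved in both directions, and as a whole they were called different between colonies and parent cells about as often as other genes. By limma, at a threshold of 0.05 on Benjamini-Hochberg p-values adjusted across the 18417 genes, 16 of 57 rose in colonies and 7 fell, which is 40.4% called against 43.8% of all genes (20.9% higher and 22.9% lower). The median log2 difference, colony minus parent, was 0.04 for the matrix genes and -0.00 for all genes. Of the 57, 6 rose and 2 fell by at least 2-fold, against 2.65% and 2.76% of all genes. The share of 2-fold rises was thus larger among the matrix genes than among all genes, a difference that was not tested. Groups without overlap were common. They occurred in 19 of the 57 with colonies higher and 8 with colonies lower, and in 4500 and 4854 of all 18417 genes. Without parent replicate 1 the falls numbered 11 in place of 7. Because these are bulk samples, fewer cells of a kind and less RNA per cell cannot be told apart in any value that follows.

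The classes differed in their counts. Basement membrane genes rose in 9 of 17, with 1 fall, fibrillar collagens in 0 of 10, also with 0 falls, and the remaining 30 matrix genes in 7, with 6 falls. Expression level goes along with these counts, since 68.0% of genes above the median expression were called but 19.5% of the others. Of the fibrillar collagens 2 lay above that median and 8 below, and of the basement membrane genes 8 lay above and 9 below. Among the 8 above it 7 were called, all as higher, while 31.2% of all genes above the median were called higher and 36.8% lower. No test compared the classes with each other.

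**Figure D1:**
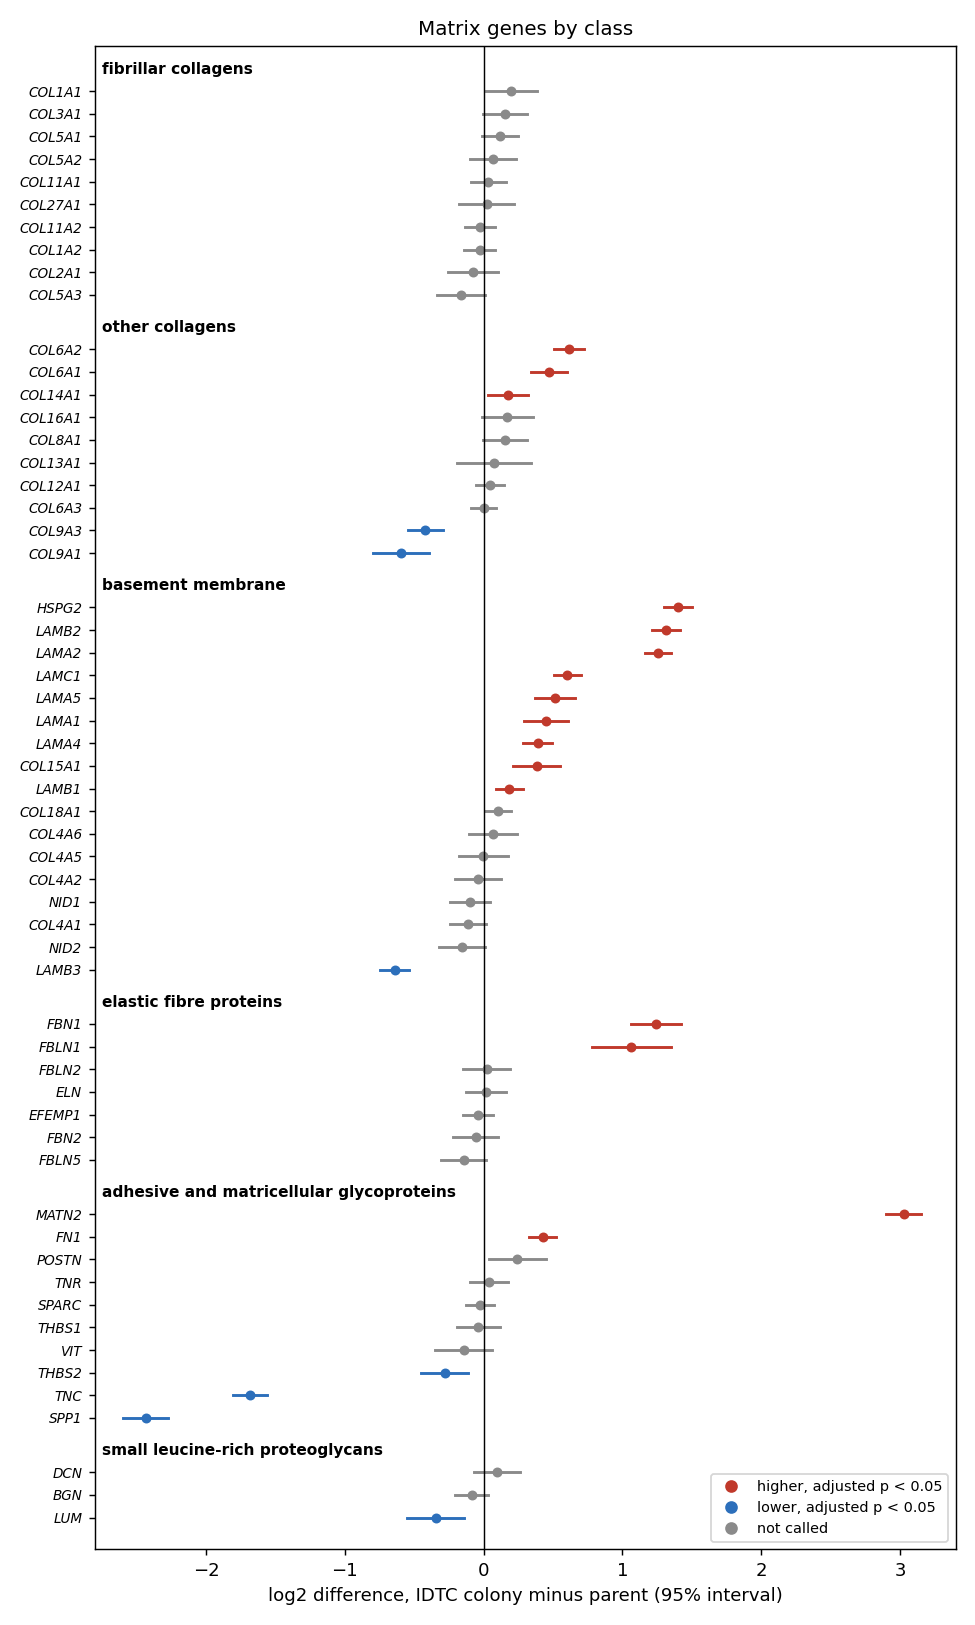
Log2 difference (colony minus parent) of the 57 matrix genes, grouped by class, with the 95% interval from limma. Red points were higher and blue points lower at an adjusted p under 0.05; the fibrillar collagens all sit near 0, while the laminin chains and HSPG2 lie right of 0 except LAMB3.

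Among the basement membrane genes, laminin chains and perlecan were higher in colonies. All 8 measured laminin chains on the list described here passed the test, with 7 higher and 1 lower in colonies. The laminin chains LAMC3 and LAMB4, which were measured but are not on that list, were not called. They differed by -0.08 and -0.05 (limma adjusted p = 0.226 and 0.53). HSPG2, which encodes perlecan, the large heparan sulfate proteoglycan of basement membranes, stood at 10.32 on all 3 colony arrays, against 8.93, 8.89 and 8.95 in parent cells. Its groups lay far apart, with a log2 difference of 1.40 ± 0.04 (SE) or 2.64-fold (limma adjusted p = 4.1e-07). LAMB2, a laminin beta chain of synaptic and glomerular basement membranes, read 9.27, 9.24 and 9.29 in colonies, against 7.925, 7.938 and 7.996 in parent cells. Every colony array exceeded every parent array, by 1.32 ± 0.04 on the log2 scale (adjusted p = 6.1e-07).

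LAMA2, the laminin alpha chain known from muscle and peripheral nerve, was at 7.46 on each colony array, against 6.22, 6.21 and 6.17 in parent cells. The difference was 1.26 ± 0.04 (limma adjusted p = 5.6e-07), and the parent mean of 6.20 lay just under the lowest array median. LAMC1, the gamma chain shared by most laminins, had 10.92, 10.90 and 10.93 in colonies, against 10.33, 10.33 and 10.28 in parent cells. It rose by 0.60 ± 0.04 with no overlap (adjusted p = 1.9e-05), a smaller step than that measured for LAMB2, although the difference between the chains was not tested.

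The remaining alpha chains rose by less than 2-fold. LAMA5, the alpha chain of many adult epithelia, differed by 0.51 ± 0.06, LAMA1, which is typical of embryonic basement membranes, by 0.45 ± 0.07, and LAMA4, typical of vessel walls, by 0.39 ± 0.04 (limma adjusted p of 0.0003, 0.00092 and 0.00024). LAMB1, the more widely used beta chain, differed by 0.19 ± 0.04 (adjusted p = 0.00727). The 95% interval was 0.09 to 0.28 for LAMB1 and 1.21 to 1.42 for LAMB2. These 4 genes also had no overlap between the groups.

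LAMB3 went the other way. This beta chain belongs to a laminin that anchors the epidermis. Its values were 6.23, 6.17 and 6.23 in colonies, against 6.87, 6.87 and 6.81 in parent cells. The fall was -0.64 ± 0.04 (limma adjusted p = 1.9e-05), and the colony mean of 6.21 was under the lowest array median.

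**Figure D2:**
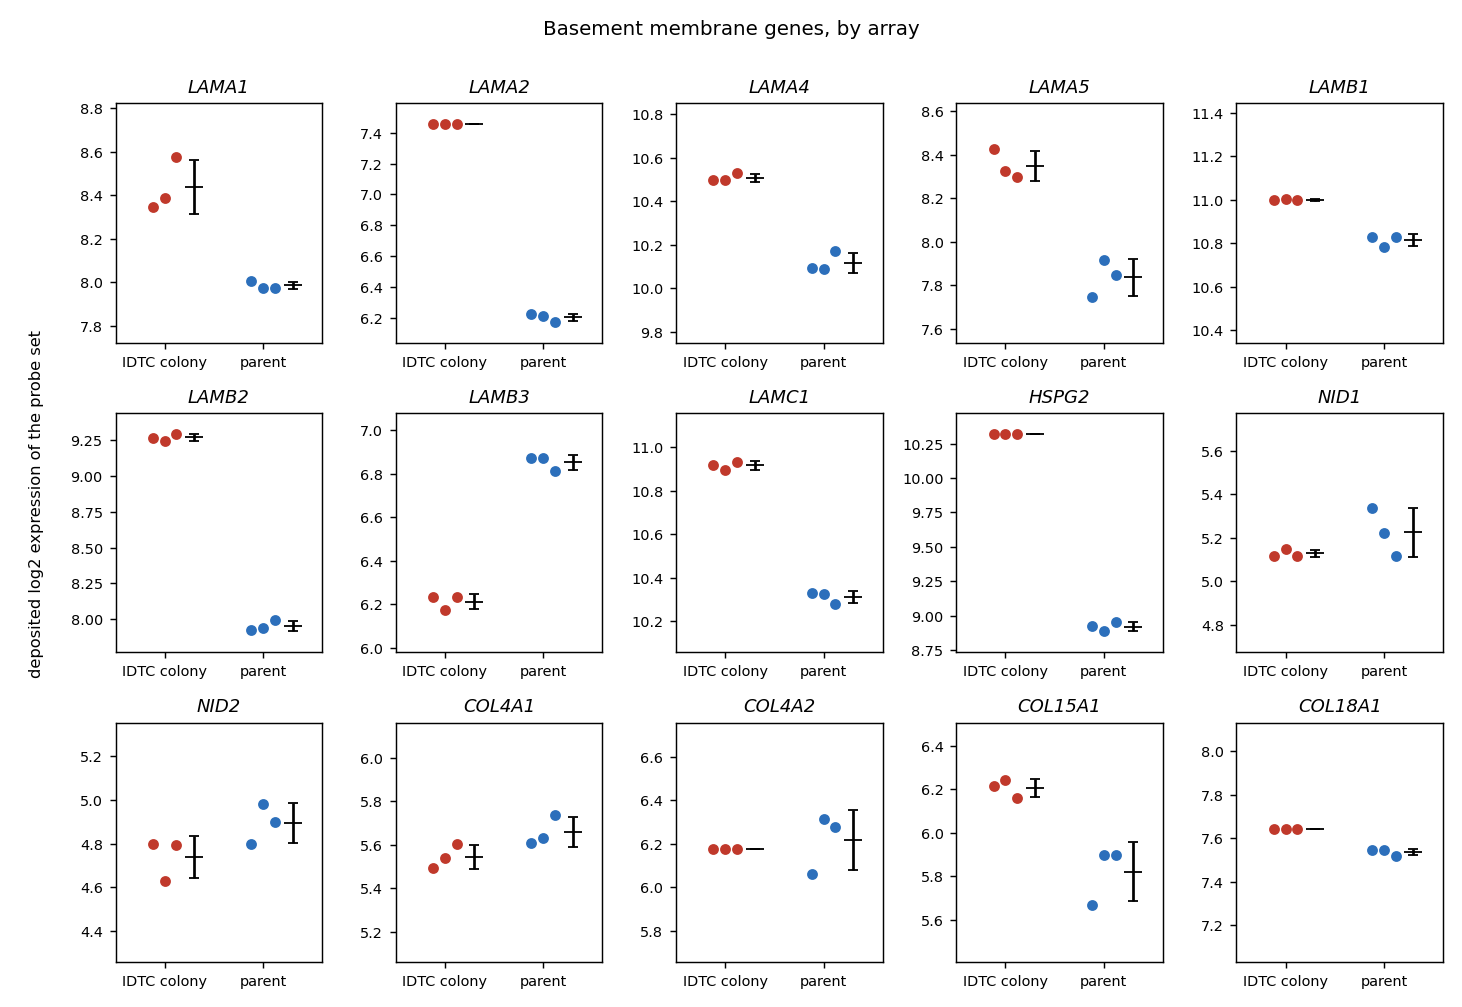
Deposited log2 values of 15 basement membrane genes on each array, colonies (red) left of parent cells (blue), with the mean ± SD beside the points; each panel has its own axis. Laminin chains and HSPG2 separate completely, LAMB3 in the opposite direction. COL4A1, COL15A1 and COL18A1 also do not overlap, while the groups of NID1, NID2 and COL4A2 overlap.

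Type IV collagen and the nidogens, which complete the sheet, did not pass the limma test, and 0 of the 4 type IV chains had an unadjusted p under 0.05. Log2 differences of COL4A1, COL4A2, COL4A5 and COL4A6 ran from -0.11 to 0.07, and their 95% intervals from -0.24 to 0.24. All 4 had group means under 6.25 in both groups. COL4A1 and COL4A2, the chains of the common type IV trimer, are a head-to-head gene pair and differed by -0.11 and -0.04. The groups of COL4A1 did not overlap, while those of COL4A2 did. The nidogen genes NID1 and NID2 differed by -0.10 and -0.15, also with both group means under 6.25. COL15A1, a collagen of the basement membrane zone, rose by 0.38 ± 0.07 (limma adjusted p = 0.00324), again with both group means under 6.25. Its relative COL18A1, the source of endostatin, was 7.64 on every colony array against 7.54, 7.55 and 7.52 in parent cells (0.11 ± 0.04, adjusted p = 0.0655). COL18A1 was called higher with only genes above the median expression tested (0.0311) and lower, at -0.17, with the median of its chromosomal neighbours subtracted (0.0111).

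Of the elastic fibre genes, 2 of 7 rose and 0 fell, which is 28.6% called against 43.8% of all genes. FBN1, which encodes fibrillin, the backbone of microfibrils, read 5.76, 5.95 and 5.85 in colonies, against 4.65, 4.71 and 4.47 in parent cells. FBLN1, a fibulin found in elastic fibres and basement membranes, read 6.67, 6.43 and 6.85 in colonies, against 5.41, 5.63 and 5.72 in parent cells. Neither pair of groups overlapped, and the rises were 1.24 ± 0.08 and 1.06 ± 0.12 (limma adjusted p = 1.1e-05 and 0.00024). Both parent means lay under 6.25, and so did the colony mean of FBN1. FBN2, FBLN2, FBLN5, EFEMP1 and ELN, the elastin gene, differed by -0.14 to 0.02 and were not called.

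The adhesive and matricellular glycoproteins held the widest range, with 2 rises and 3 falls among 10. MATN2, a matrilin that links filamentous matrix networks, had 7.73, 7.76 and 7.77 in colonies, against 4.64, 4.76 and 4.79 in parent cells. This rise of 3.03 ± 0.05 (limma adjusted p = 8.4e-08) is 8.15-fold in deposited values and rank 14 among the rises of all genes, although the parent mean of 4.73 was not shown to be above background. FN1, the fibronectin gene, rose by 0.42 ± 0.04 (adjusted p = 0.0001), with 13.12, 13.13 and 13.10 in colonies, against 12.72, 12.68 and 12.68 in parent cells.

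SPP1, which encodes osteopontin, a secreted integrin ligand, fell furthest. Its values were 5.83, 6.05 and 5.94 in colonies, against 8.43, 8.29 and 8.40 in parent cells. The groups were separate by a wide margin, at -2.43 ± 0.07 on the log2 scale or 5.40-fold lower in colonies (limma adjusted p = 3.2e-07), and the colony mean lay under 6.25. TNC, the gene of tenascin-C, a large glycoprotein of wounds and tumour stroma, fell by 1.68 on the log2 scale (SE 0.05, adjusted p = 4.4e-07). It stood at 9.49, 9.46 and 9.49 in colonies, against 11.21, 11.08 and 11.21 in parent cells, all above the array medians.

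THBS2, a thrombospondin with both group means under 6.25, fell by 0.28 on the log2 scale (limma adjusted p = 0.0162). Its call was lost without colony replicate 2 (0.0577), colony replicate 3 (0.0638) or parent replicate 3 (0.0554). SPARC, a collagen-binding glycoprotein abundant in melanoma cells, was at 12.70 ± 0.03 in colonies and 12.73 ± 0.03 in parent cells (SD, n = 3 each), and the 95% interval of its difference was -0.13 to 0.07. THBS1, TNR, a tenascin of the nervous system, VIT and POSTN, the periostin gene, were not called. POSTN had a difference of 0.24 with adjusted p = 0.0578 and both means under 6.25.

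**Figure D3:**
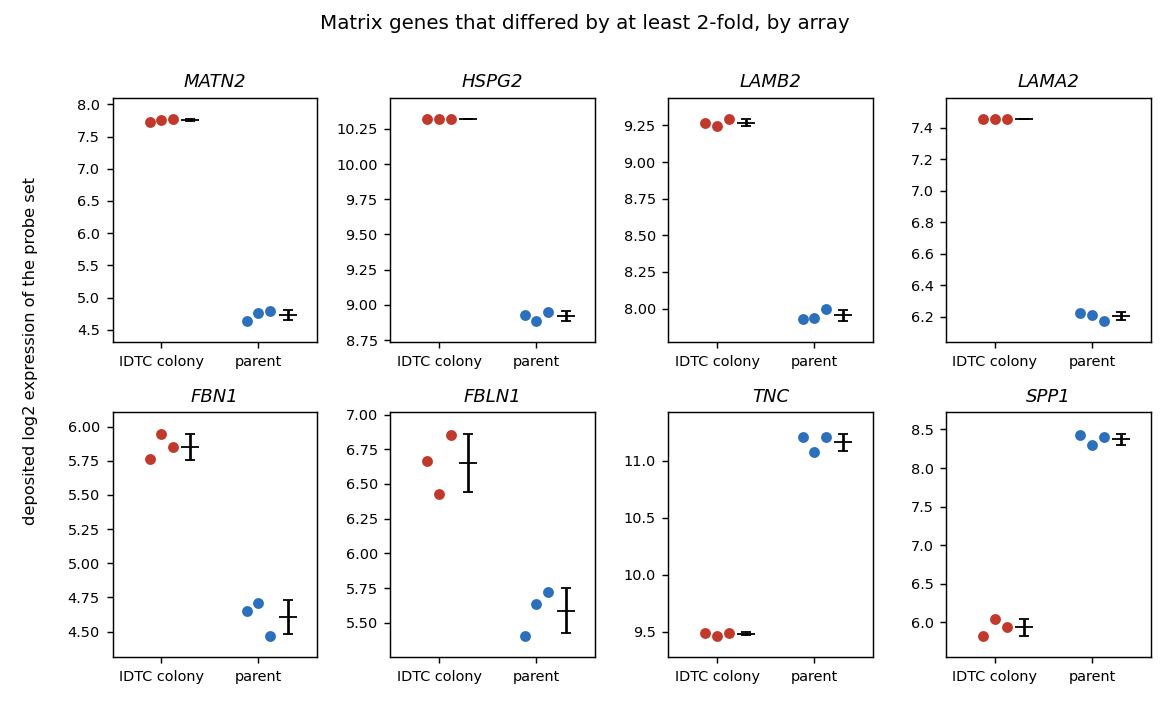
Deposited log2 values on each array for the 8 matrix genes that differed by at least 2-fold at an adjusted p under 0.05, colonies (red) left of parent cells (blue), with the mean ± SD beside the points and a separate axis per panel. In all 8 panels the groups do not overlap; TNC and SPP1 are lower in colonies.

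The upstream sequences of 5 of these 8 genes are shown, for 3 that rose and the 2 that fell, because they lie next to the start sites of the basement membrane genes that rose by at least 2-fold and of the genes that fell by as much. MATN2, FBN1 and FBLN1 are not shown. Each is the 150 bases directly before the start in RefSeq, build GRCh38.p14, read 5′ to 3′ on the gene's strand, with GC boxes (GGGCGG or its complement CCGCCC, overlapping matches joined) in capitals. They lie at chr1:21937311-21937460 (minus strand) for HSPG2, chr3:49133051-49133200 (minus) for LAMB2, chr6:128882988-128883137 (plus) for LAMA2, chr9:115118158-115118307 (minus) for TNC and chr4:87975564-87975713 (plus) for SPP1.
HSPG2: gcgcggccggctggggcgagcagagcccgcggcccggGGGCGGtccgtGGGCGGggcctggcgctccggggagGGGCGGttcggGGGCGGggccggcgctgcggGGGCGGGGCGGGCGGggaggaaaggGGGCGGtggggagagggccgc
LAMB2: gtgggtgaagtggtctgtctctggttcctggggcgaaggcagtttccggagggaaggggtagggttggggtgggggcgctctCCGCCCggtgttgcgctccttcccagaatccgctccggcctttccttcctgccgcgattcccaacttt
LAMA2: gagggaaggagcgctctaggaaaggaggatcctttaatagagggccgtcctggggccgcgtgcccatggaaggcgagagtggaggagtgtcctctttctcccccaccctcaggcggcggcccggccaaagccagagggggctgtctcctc
TNC: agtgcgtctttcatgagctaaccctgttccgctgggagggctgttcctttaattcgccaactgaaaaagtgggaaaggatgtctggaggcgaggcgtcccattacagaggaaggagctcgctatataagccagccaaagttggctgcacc
SPP1: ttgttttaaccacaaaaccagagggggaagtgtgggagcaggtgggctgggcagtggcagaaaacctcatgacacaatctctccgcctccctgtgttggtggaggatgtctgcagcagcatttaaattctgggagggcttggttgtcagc

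HSPG2 carried 8 GC boxes in the 250 bases before its start, LAMB2 and TNC 1 each and LAMA2 and SPP1 0, while 42.6% of 35116 RefSeq promoters of the same length held at least 1. The box of TNC lies further upstream than the printed stretch. CG dinucleotides numbered 33 for HSPG2, 12 for LAMB2, 9 for LAMA2, 12 for TNC and 3 for SPP1, beside a median of 11 over all promoters. The letters TATAAA (held by 10.7% of promoters on either strand), TGANTCA (6.57%) and CACGTG (6.34%) were not in any of the 5 windows. These matches describe the letters only.

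The fibrillar collagens were not called in either direction by limma, and 1 of the 10, COL1A1, had an unadjusted p under 0.05. Their log2 differences ran from -0.16 for COL5A3 to 0.20 for COL1A1, and the 95% intervals of all 10 stayed between -0.33 and 0.39. COL1A1, the main chain of type I collagen, read 7.51, 7.58 and 7.63 in colonies, against 7.20, 7.46 and 7.46 in parent cells. The groups did not overlap, but the difference of 0.20 missed the threshold (limma adjusted p = 0.0814). It passed with the replicate number as a block (0.0446) and with only genes above the median expression tested (0.0355). The 50 nearest expressed genes on chromosome 17 had a median of 0.43, and with that subtracted COL1A1 stood at -0.23, with its direction turned and not called. Its partner COL1A2 differed by -0.03, with an interval of -0.14 to 0.08, and both its means lay under 6.25. Type III collagen (COL3A1, 0.15) and the type V chains COL5A1 (0.12), COL5A2 (0.07) and COL5A3 (-0.16), which set fibril width, were not called, nor were the cartilage chains COL2A1 (-0.08), COL11A1 (0.04) and COL11A2 (-0.02) and COL27A1 (0.02).

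COL11A2 had further probe sets that disagreed. Its chosen probe set differed by -0.02, while 2 others, with identical values on every array, averaged 6.44 in colonies and 7.12 in parent cells, a difference of -0.68 (adjusted p = 0.0001 over all probe sets with 1 symbol). With the mean of the probe sets the gene was called lower, at -0.46. No other matrix gene had more than 1 probe set with a single symbol, and 1 probe set that names COL1A2 together with another gene was not used.

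Of the 10 collagens that are neither fibrillar nor in the basement membrane class, 3 rose and 2 fell. COL6A1 and COL6A2, chains of the beaded filaments of type VI collagen, rose by 0.47 ± 0.05 and 0.62 ± 0.05 (limma adjusted p = 0.00026 and 2.7e-05). COL6A2 stood at 8.49, 8.48 and 8.45 in colonies, against 7.80, 7.87 and 7.91 in parent cells, and neither gene's groups overlapped. The third chain, COL6A3, was listed at 5.00 on all 6 arrays. COL6A1, COL6A2 and COL18A1 lie on the long arm of chromosome 21, where the 50 nearest genes above the median expression had a median difference of 0.23 around the type VI genes and 0.27 around COL18A1. After subtraction of that median COL6A1 and COL6A2 were still called higher, at 0.24 and 0.38.

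The type IX collagen genes, cartilage chains that coat fibrils, went down. COL9A1 read 6.05, 5.96 and 5.72 in colonies, against 6.49, 6.49 and 6.54 in parent cells, and COL9A3 read 8.14, 8.06 and 7.98, against 8.48 on each parent array. They fell by 0.60 (SE 0.09) and 0.42 (SE 0.05) on the log2 scale (limma adjusted p = 0.00081 and 0.00039). The colony mean of COL9A1, 5.91, lay under 6.25. COL9A2, the third chain, which is not among the 58, differed by 0.01. COL14A1, a collagen of fibril surfaces with both group means under 6.25, rose by 0.18 (limma adjusted p = 0.049). Its call ended under 9 of the 13 alternatives that tested it. Of the 13, the subtraction of the neighbour median left its values unchanged. COL8A1, COL12A1, COL13A1 and COL16A1 were not called.

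Of the small leucine-rich proteoglycans, which bind collagen fibrils, LUM, the lumican gene, fell and DCN (0.10) and BGN (-0.09), the decorin and biglycan genes, were not called. LUM had 7.71, 7.78 and 7.80 in colonies, against 8.29, 7.94 and 8.08 in parent cells. Its groups did not overlap, and the difference was -0.34 ± 0.09 (limma adjusted p = 0.0142). The 50 nearest expressed genes on chromosome 12 had a median of -0.38, and with that subtracted LUM stood at 0.038 and was not called (adjusted p = 0.777). Without colony replicate 1 the call was also lost (0.0576). SPP1 on chromosome 4 fell beside a neighbour median of -0.28, and was still called after its subtraction.

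Genes that process collagen were called in 17 of 30, 5 of them higher and 12 lower in colonies. This is 56.7% called, against 43.8% of all genes (20.9% higher and 22.9% lower). P4HA2, a prolyl hydroxylase subunit that stabilises the triple helix, read 8.65, 8.62 and 8.81 in colonies, against 9.90, 9.96 and 10.03 in parent cells. It fell by 1.27 on the log2 scale (SE 0.07, limma adjusted p = 4.7e-06), without overlap, and was the gene of this list that fell by at least 2-fold. Further falls included those of PCOLCE (-0.98), an enhancer of procollagen cleavage, and the lysyl hydroxylase gene PLOD2 (-0.93). Also among the falls were the lysyl oxidase relative LOXL3 (-0.75), P4HA1 (-0.74) and the collagen chaperone gene SERPINH1 (-0.31). The rises included MIA3 (0.67), which helps to load procollagen for export, and PLOD1 (0.31). Of these 30 genes 22 lay above the median expression, where 16 were called, 4 higher and 12 lower. Of all such genes 68.0% were called, 31.2% higher and 36.8% lower.

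Some matrix genes outside the 58 also differed by at least 2-fold, although their lists were not called more often than the 43.8% of all genes. Of 7 other basement membrane genes 2 rose and 1 fell, which is 42.9% called. HMCN1, which encodes the giant basement membrane protein hemicentin, read 10.83, 10.77 and 10.76 in colonies, against 9.17, 9.00 and 9.13 in parent cells (1.69 ± 0.06, limma adjusted p = 6.7e-07), while AGRN, the agrin gene, fell (-0.47). Of 17 other collagen chains 1 rose and 1 fell (11.8% called), and COL19A1, a basement membrane zone collagen, differed by -1.02 ± 0.06.

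Among 36 other glycoproteins and proteoglycans 6 rose and 6 fell, which is 33.3% called against 43.8% of all genes. MFAP2, a microfibril component, had 7.86, 8.01 and 7.24 in colonies, against 9.91, 10.07 and 10.07 in parent cells, which is -2.31 ± 0.18 (limma adjusted p = 3.6e-05), opposite in sign to FBN1 at 1.24. EMILIN1, an elastic fibre glycoprotein, fell as well (-1.002). PRELP, a leucine-rich proteoglycan of basement membranes, rose by 2.04, the integrin ligand gene EDIL3 by 1.83, ABI3BP by 1.51, MGP, an inhibitor of calcification, by 1.07 and the thrombospondin gene THBS3 by 1.06. THBS3 read 6.50, 6.70 and 6.28 in colonies, against 5.15, 5.68 and 5.48 in parent cells, opposite in sign to THBS2 at -0.28, and its parent mean lay under 6.25. The parent means of EDIL3 and ABI3BP, 5.65 and 5.01, also lay under 6.25. PRELP stood at 8.89 on each colony array, against 6.75, 7.14 and 6.66 in parent cells.

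**Figure D4:**
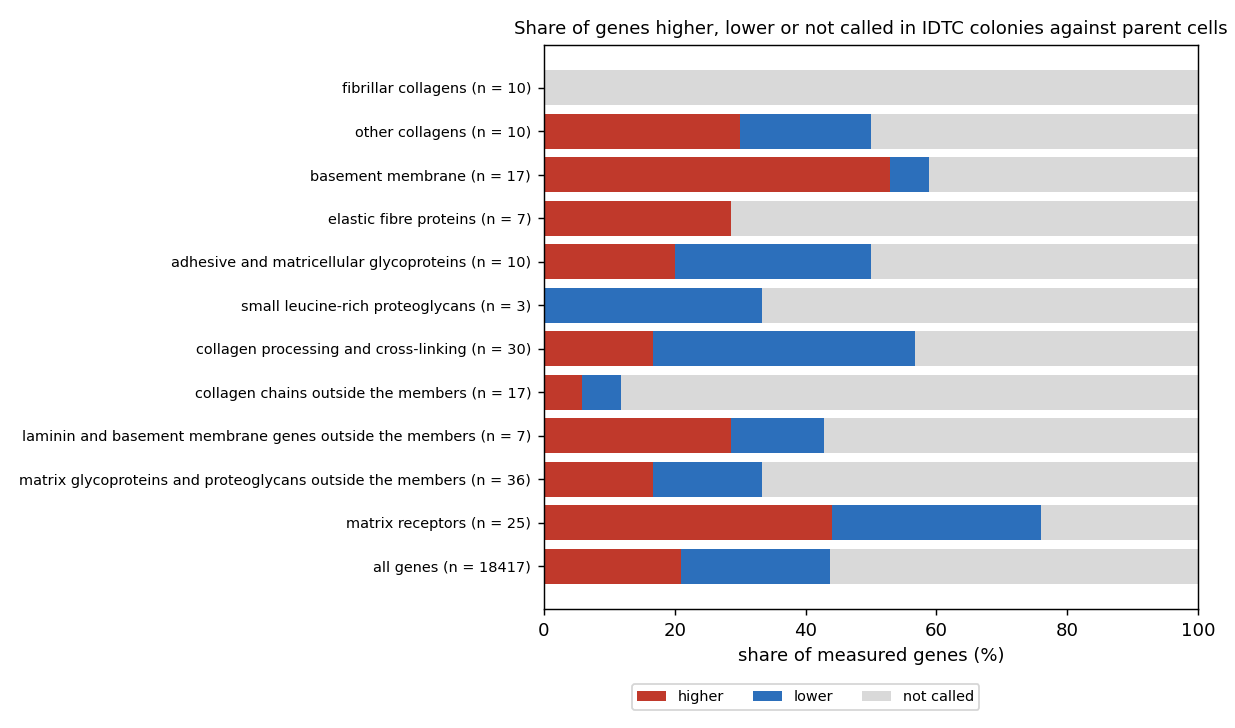
Share of measured genes (percent) that were higher (red), lower (blue) or not called (grey) in colonies against parent cells, for the 6 matrix classes, the 5 related lists and all genes, with the number measured beside each name. Basement membrane genes have the longest red bar among the 6 classes, collagen processing genes a longer blue than red bar, and fibrillar collagens neither.

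Markers of cell types moved beside these genes, and their part in the matrix results was not tested. Their counts stand beside 20.9% of all genes higher and 22.9% lower by limma. Of 9 melanocyte lineage markers 4 rose and 2 fell. The falls were those of MLANA (-1.445, limma adjusted p = 4.1e-07) and TYRP1 (-0.23), and GPR143 rose furthest (0.90). MITF, TYR and SLC45A2 were not called. Of 10 fibroblast markers 1 rose and 2 fell, and the log2 of their summed level ran from 9.74 to 9.78 in colonies and from 10.44 to 10.46 in parent cells. PRRX1, a mesenchymal transcription factor gene, accounted for the deepest fall, at -3.06 ± 0.05 (limma adjusted p = 6.5e-08). Of 8 smooth muscle and pericyte markers 4 rose and 0 fell, with a summed level of 11.40 to 11.44 in colonies and 10.81 to 10.88 in parent cells. MCAM was the largest part of that sum, at 10.91 in colonies and 10.45 in parent cells. MYH11, DES, RGS5 and KCNJ8 were not called. ACTA2, the smooth muscle actin gene, read 8.53, 8.53 and 8.69 in colonies, against 5.58, 5.50 and 5.70 in parent cells. Of 8 endothelial markers 1 rose, of 7 keratinocyte markers 0 were called by limma (0 at an unadjusted p under 0.05), and of 7 leukocyte markers 0 rose and 3 fell. The summed level of the leukocyte markers ran from 10.07 to 10.13 in colonies and from 11.32 to 11.41 in parent cells, and CD68 was the largest part of it. PTPRC, CD3E, CD14 and ITGAM were not called and had both group means under 6.25. The 3 that fell were LYZ, the lysozyme gene, FCER1G, an Fc receptor subunit gene (-1.44), and CD68, a lysosomal protein gene used as a macrophage marker (-1.27). LYZ averaged 5.41 ± 0.14 in colonies and 7.76 ± 0.17 in parent cells (SD, n = 3 each). CD68 was at 9.78 ± 0.04 in colonies and 11.05 ± 0.03 in parent cells (SD, n = 3 each), and the other two genes had colony means under 6.25.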

How the data were processed

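RNA of 3 IDTC colony and 3 parent samples of WM164 was measured on Affymetrix whole-transcript arrays, after RNeasy extraction and biotin labelling per the labels' protocols. The values are log2 levels per probe set as deposited, made with Affymetrix Expression Console per the submitters' processing notes; no version, background correction or normalization was given in the sources used here. Of 33297 probe sets 19460 had 1 gene symbol, 1754 several and 12083 none, and the highest-mean probe set stood for each of 18417 genes, with no filter. The samples' RNA was isolated independently, but separate cultures are not stated, so the p-values reflect the spread among the samples alone, which may be technical. A batch, of which no record was used here, cannot be told apart from the groups if it followed them.

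The difference between colonies and parent cells was fitted with limma 3.58.1 in R 4.3.3 (lmFit and eBayes, 2-sided, no covariates), and p-values were adjusted across all genes by Benjamini-Hochberg, with a threshold of 0.05. Same-numbered samples deviated together at correlations of -0.09, -0.06 and -0.01, so the numbers were not taken as pairs. The median SD within groups was 0.08. On simulated data with 200 changed genes among 18417, the fit recovered 86% of log2 changes of 0.5 and 100% of those of 1, with 3 false calls. That setting had independent noise and far fewer changed genes than the 8061 called here, so these rates need not hold for the data. Neighbour medians took the 50 nearest genes above the median expression (25 on each side) in the GRCh38.p14 gene order. They were subtracted only from genes above the median expression. Of the 57 measured genes 41 had a promoter entry in the RefSeq table. The members, lists and rule for named genes (all members, with array values for those that differed by at least 2-fold, and the members of related lists past 2-fold) were chosen with earlier results of these data known; other genes and array values were chosen after they were seen. The lists held 5 related groups and 6 of cell type markers. Figures used matplotlib 3.10.9.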

Additional observations from a re-analysis of the deposited data

How the results depend on the processing

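Of the 23 called matrix genes, 20 kept their call and direction under every one of the 14 alternatives that tested them. The exceptions were COL14A1, THBS2 and LUM. The neighbour median was subtracted only from genes above the median expression, so 9 of the 23 kept unchanged values under that alternative. MATN2, LAMA2, FBN1 and FBLN1 were among those 9, and for them it was no check. The 8 genes past 2-fold stayed at absolute log2 differences of 0.96 to 3.05. When the test was limited to genes above the median expression, 19 of the 57, falls numbered 4 in place of 7, fibrillar rises 1 (COL1A1) in place of 0, basement membrane falls 0 in place of 1 and rises of the other classes 3 in place of 7, because dim genes were not tested; COL18A1 was also called higher there. With the mean of the probe sets fibrillar falls numbered 1 (COL11A2). The replicate block gave 1 fibrillar rise (COL1A1, adjusted p = 0.0446), ended the call of COL14A1 (0.0882) and left 16 matrix rises and 7 falls; it changed no other matrix call, and same-numbered samples did not deviate together. With the neighbourhood median subtracted basement membrane falls numbered 2, since COL18A1 stood at -0.17 in place of 0.11, and COL1A1 stood at -0.23 in place of 0.20, not called. SPARC then stood at 0.25 in place of -0.03 and was called higher, ELN at 0.36 was called higher, and LUM stood at 0.038 in place of -0.34; the cause was not tested. Leaving out 1 array at a time gave 6 to 11 matrix falls, 0 to 2 fibrillar falls and 1 to 2 basement membrane falls, the highest each time without parent replicate 1, where COL2A1, COL5A3, COL4A2 and BGN were also called lower. Among 34 uncalled genes 11 were called under at least 1 alternative. With quantile normalization no matrix call changed. The distance of a dim probe set from background limits every fold that rests on a group mean under 6.25.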

Other observations

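Of 25 receptors for matrix proteins 11 were higher and 8 lower in colonies by limma, which is 76.0% called, beside 43.8% of all genes. Above the median expression lay 17 of the 25, all of them called, beside 68.0% of all such genes. The discoidin domain receptors, kinases that bind collagen, split. DDR2 read 10.53, 10.53 and 10.57 in colonies, against 9.51, 9.51 and 9.54 in parent cells (1.03 ± 0.04, limma adjusted p = 1.5e-06). DDR1 read 8.01, 8.02 and 8.12 in colonies, against 9.01, 9.09 and 9.14 in parent cells (-1.03 ± 0.05, adjusted p = 4.8e-06). In neither gene did the groups overlap.

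Integrin genes also moved both ways. ITGA2, an alpha subunit for collagen and laminin, rose by 1.11 ± 0.06 and ITGAV, an alpha subunit for osteopontin, fibronectin and vitronectin, by 1.06 ± 0.05 (limma adjusted p = 4.4e-06 and 2.4e-06). ITGB8 (-1.35 ± 0.05), which pairs with the ITGAV product, and ITGA4 (-1.03 ± 0.04), an alpha subunit for fibronectin, fell (adjusted p = 8.8e-07 and 1.6e-06). ITGB8 stood at 9.08, 9.18 and 9.18 in colonies, against 10.47, 10.49 and 10.54 in parent cells. BCAM, a receptor for the LAMA5 product, rose by 0.82 ± 0.09, beside a rise of 0.51 in LAMA5. Of the same 25 receptors, 11 of which rose, ITGB3 (-0.95) and ITGA6 (-0.61) were among the 8 that fell.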
